A study of Sus scrofa with 16 samples.

Results

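The genes described here are 10 negative regulators of Wnt signalling in the pig pituitary, out of 25880 genes in the deposited table. They were taken by name. Of these, 4 encode TLE corepressors (TLE1, TLE2, TLE3 and TLE4) and 6 encode secreted Wnt antagonists (FRZB, SFRP1, SFRP2, SFRP5, DKK3 and WIF1). All 10 were found in the table and all 10 passed the filter on low counts. The study listed TLE1, TLE2, FRZB and SFRP5 among its differentially expressed genes in these same animals, so the values of those genes here are not independent evidence. It describes Puławska genes for negative regulation of canonical Wnt signalling as overexpressed, without naming a group in that sentence. Here the estimate for FRZB was lower in the group with high feed conversion.

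Wnt proteins are secreted signals that bind frizzled receptors and LRP co-receptors on the cell surface. In the canonical pathway this stabilises β-catenin, which enters the nucleus and joins TCF/LEF factors to switch genes on. Without β-catenin the same TCF/LEF factors hold TLE proteins, the vertebrate relatives of Drosophila Groucho. TLE proteins bind no DNA themselves and recruit histone deacetylases, which keep the genes silent. Secreted frizzled-related proteins (SFRPs, including FRZB) and WIF1 act outside the cell, where they can bind Wnt proteins. Wnt signalling and TLE partners such as HESX1 are known for their part in pituitary development.

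RNA-seq was made from whole pituitary glands of 16 gilts of the Puławska breed, a native Polish pig. The LFC group (low feed conversion, 8 gilts, replicates 1 to 8) needed less feed per unit of gain than the HFC group (high feed conversion, 8 gilts, replicates 9 to 16). All were female, unrelated, raised on different farms and kept under the same conditions in a test station. No treatment or engineered allele is named for either group. The labels give an age of 3 months, while the methods of the study give an older age at slaughter. The glands hold both lobes, so 1 library mixes hormone cells of the anterior lobe, melanotrophs of the intermediate lobe, and pituicytes (the glia of the posterior lobe). In such bulk samples, fewer cells of a type and less RNA per cell cannot be told apart.

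Total counts ran from 11 M to 23.1 M per library (M, mega). Anterior hormone genes were present in every library, with a summed level of 52400 to 166000 CPM (counts scaled to the depth of the library) in LFC and 13900 to 169000 in HFC. All 5 matched hormone markers were lower in HFC, with a mean log2 CPM of 12.85 in LFC and 11.52 in HFC (difference -1.34). None of the 8 HFC libraries was above the LFC mean, and HFC replicate 16 was the lowest at 7.77. The part of this shift in the results on the members was not tested. Some libraries stood apart. The highest or lowest value of a gene over the 16 libraries lay in LFC replicate 5 for 55.3% of the 14319 genes tested, in HFC replicate 16 for 30.7% and in LFC replicate 8 for 21.6%. Pituicyte and glial markers (8 of 10 listed genes matched, 7 of 8 higher in HFC) summed to 236 to 670 CPM in LFC and 119 to 2110 in HFC. All 4 matched melanotroph markers (PAX7, PCSK2, POMC and DRD2) were higher in HFC. Their sums were 6060 to 77400 CPM in LFC and 23100 to 246000 in HFC, the highest in HFC replicate 16. POMC also gives the adrenocorticotropic hormone of the anterior lobe, so the sum is not a level of melanotrophs alone. No matched marker was at 0 in 8 or more libraries. Values below are CPM, scaled by TMM, which corrects for library composition. They are meant to compare 1 gene between libraries, because gene lengths were not used. A ranking of different genes by CPM is only rough.

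None of the 10 genes passed the test between the feed conversion groups, and neither did any of the 14319 genes (0% called by edgeR at an adjusted p of at most 0.05 and a fold of at least 1.3). The smallest adjusted p over all genes was 0.612. With the same thresholds DESeq2 called 6 genes and limma-voom 0, none of them a member. At an unadjusted p under 0.05, edgeR gave 834 genes or 5.82% of those tested, with 4.29% higher in HFC and 1.53% lower. Among the 10 members, 2 met this unadjusted threshold, TLE1 and SFRP5, both with higher values in HFC. With 10 members a count of 2 is too small to read against a background of 5.82%. An exact permutation test over 12870 assignments of the libraries also called no gene (smallest adjusted p = 0.556), with 4.37% of genes at an unadjusted p under 0.05. That test placed 3 members under the unadjusted threshold, namely TLE1, SFRP5 and FRZB. Log2 fold changes were above 0 for 5 of the 10 members, beside 48.4% of all genes, and their median was 0.005 (all genes: -0.008).

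By role, of the 4 TLE genes 3 had a higher estimate in HFC, with a median log2 fold change of 0.39. Of the 6 secreted antagonists 2 had a higher estimate, with a median of -0.36. Neither median is a test.

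**Figure D1:**
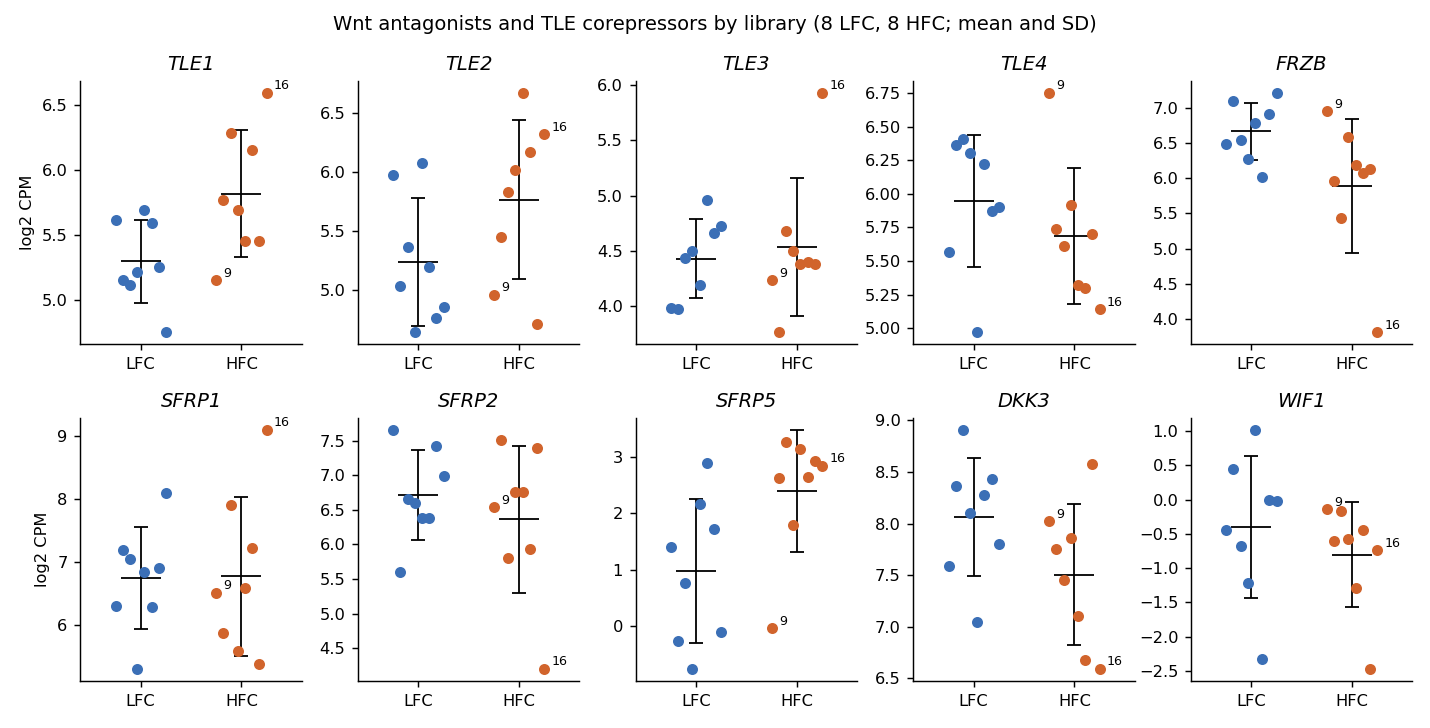
The log2 CPM of each of the 10 genes in each library, for 8 LFC (blue) and 8 HFC (orange) gilts, with the group mean as a horizontal bar and its SD as the error bar. HFC replicates 9 and 16 are numbered. Replicate 9 lies on the LFC side for TLE1, TLE4, FRZB and SFRP5, and replicate 16 is at the end of the range for 6 genes.

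TLE1 (ENSSSCG00000005291, chr1:234278174-234370608, Sscrofa11.1) encodes a full-length Groucho-type corepressor. Its level in LFC ran from 26.8 to 51.4 CPM with a median of 37.3. In HFC it ran from 35.4 to 96.2 CPM with a median of 53.0. The groups overlapped, but 7 of 8 HFC libraries were above the LFC mean and 5 were above the highest LFC library. The mean was 39.9 ± 8.56 CPM in LFC and 59.2 ± 20.6 in HFC (SD, n = 8 each). Fitted by edgeR as HFC over LFC, the log2 fold change was 0.57 with a standard error (SE) of 0.20. The 95% interval was 0.15 to 0.98. The unadjusted p was 0.0103 and the adjusted p was 0.649. Leaving out each library in turn gave 0.43 to 0.65, with an unadjusted p under 0.05 in all 16 fits and an adjusted p of 0.338 at the least.

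TLE2 (ENSSSCG00000028995, chr2:75515115-75540289), a close paralogue of TLE1, had the same point estimate and a wider spread. Its LFC libraries lay between 24.7 and 67.4 CPM with a median of 34.4. The HFC libraries lay between 26 and 102 CPM with a median of 60.7. LFC replicates 1 and 5 reached the upper HFC range, while HFC replicates 9 and 15 stayed with the lower LFC libraries. By edgeR it differed by 0.57 log2 units (SE 0.28, 95% interval -0.02 to 1.17, adjusted p = 0.885). Leaving out HFC replicate 13, the highest library, gave 0.42, and leaving out LFC replicate 5 gave 0.72.

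TLE3 (ENSSSCG00000004971, chr1:167808509-167855819), the corepressor known from fat cell differentiation, had a smaller estimate than TLE1 and TLE2. The difference between these genes was not tested, and the interval for TLE3 includes their estimates. It ran from 15.5 to 30.9 CPM in LFC (median 22) and from 13.5 to 61.1 CPM in HFC (median 20.9). A single library, HFC replicate 16 at 61.1 CPM, lay far above the other 7 HFC libraries, whose highest was 25.5. By edgeR it differed by 0.21 log2 units (SE 0.26, 95% interval -0.33 to 0.76, adjusted p = 1), and without that library it was -0.11.

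TLE4 (ENSSSCG00000005288, chr1:232344331-232507057) lies 1.771 Mb from TLE1 on the same chromosome, with 1 RefSeq protein-coding gene between them, yet its estimate had the opposite sign. LFC libraries ran from 31.1 to 85.0 CPM with a median of 67.1. HFC libraries ran from 35.2 to 108 CPM with a median of 50.3. In HFC, 7 of 8 libraries were below the LFC mean, and the exception, replicate 9, held the highest level of all 16. In LFC, replicate 5 was the only library below 47.5 CPM. By edgeR it differed by -0.24 log2 units (SE 0.24, 95% interval -0.74 to 0.25, adjusted p = 1). Without HFC replicate 9 it was -0.46 with an unadjusted p of 0.0331. The libraries keep no strand and the TLE genes are similar in sequence, so reads shared by paralogues or by an antisense transcript cannot be separated in any of the 4.

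Among the secreted antagonists, FRZB (ENSSSCG00000016018, chr15:88332857-88377247), also known as SFRP3 and first found in cartilage, had lower values in HFC. Its LFC libraries ran from 64.7 to 148 CPM with a median of 102. Its HFC libraries ran from 13.9 to 123 CPM with a median of 68.4. Again 7 of 8 HFC libraries were below the LFC mean with replicate 9 as the exception, and 3 were below the lowest LFC library. The mean was 105 ± 29.0 CPM in LFC and 68.4 ± 32.6 in HFC (SD, n = 8 each). By edgeR it differed by -0.62 log2 units (SE 0.30, 95% interval -1.26 to 0.02, adjusted p = 0.874). The exact permutation test gave an unadjusted p of 0.0289. Without HFC replicate 16, in which FRZB was at 13.9 CPM, the log2 fold change was -0.46, and without replicate 9 it was -0.79.

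SFRP5 (ENSSSCG00000010529, chr14:109119822-109125686), a secreted antagonist also known as an adipokine, had the largest estimate of the 10, at a low level. LFC libraries ran from 0.473 to 7.29 CPM with a median of 2.05. HFC libraries ran from 0.855 to 9.43 CPM with a median of 6.63. All HFC libraries except replicate 9 were above the LFC mean, and 3 were above the highest LFC library. The mean was 2.62 ± 2.32 CPM in LFC and 6.16 ± 2.83 in HFC (SD, n = 8 each), and the fitted difference was 1.23 log2 units (SE 0.53, 95% interval 0.12 to 2.35). The unadjusted p was 0.0322 and the adjusted p was 0.804. These values rest on 9 to 195 counts per library. Over the fits with 1 library left out, the log2 fold change ran from 1.07 to 1.67 and the unadjusted p was under 0.05 in 10 of 16, with 0.0603 without HFC replicate 11.

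DKK3 (ENSSSCG00000013401, chr2:47385239-47444661) belongs to the Dickkopf family by sequence, although its effect on Wnt signalling depends on the cell and it does not act on LRP co-receptors as DKK1 does. Its LFC libraries ran from 133 to 480 CPM (median 293). Its HFC libraries ran from 96.4 to 382 CPM (median 195). All HFC libraries but replicate 15 were below the LFC mean, and replicates 14 and 16 were below the lowest LFC library. By edgeR it differed by -0.52 log2 units (SE 0.29, 95% interval -1.13 to 0.09, adjusted p = 0.93), or -0.72 when HFC replicate 15 was left out and -0.38 when LFC replicate 3 was.

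SFRP1 (ENSSSCG00000025822, chr17:10436411-10489755) and SFRP2 (ENSSSCG00000009004, chr8:75337106-75347522), which share a subfamily with SFRP5, varied widely within both groups. SFRP1 ran from 39.3 to 272 CPM in LFC (median 117) and from 41.6 to 548 CPM in HFC (median 93.8). SFRP2 ran from 48.4 to 202 CPM in LFC (median 99.2) and from 18.2 to 182 CPM in HFC (median 101). HFC replicate 16 held both the highest SFRP1 and the lowest SFRP2 of all 16 libraries. For SFRP1 the fitted difference was 0.38 log2 units (SE 0.50, 95% interval -0.68 to 1.44, adjusted p = 1) and became -0.24 without that library. For SFRP2 it was -0.20 (SE 0.37, 95% interval -0.99 to 0.58, adjusted p = 1). The SD within groups, on the log2 scale, was 1.06 for SFRP1 and 0.88 for SFRP2, above that of 95.7% and 92.4% of the genes with at least 5 CPM. For TLE1 it was 0.41, above 54.7%, the lowest of the members. FRZB (0.73, above 88.2%), DKK3 (0.63, above 82.2%) and TLE2 (0.61, above 80.8%) also varied more than most genes. TLE3 and TLE4 were above 69.5% and 68.3%. SFRP5 and WIF1, with a mean under 5 CPM, had 1.19 and 0.91.

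WIF1 (ENSSSCG00000030998, chr5:29450442-29543913 in RefSeq), which binds Wnt proteins through a domain of its own kind, was close to the limit of detection. It had 1 to 26 counts per library, or 0.0824 to 1.90 CPM in LFC (median 0.741) and 0.0629 to 0.789 in HFC (median 0.546). LFC replicate 6 and HFC replicate 15 were the lowest. By edgeR it differed by -0.59 log2 units (SE 0.49, 95% interval -1.62 to 0.44, adjusted p = 1).

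**Figure D2:**
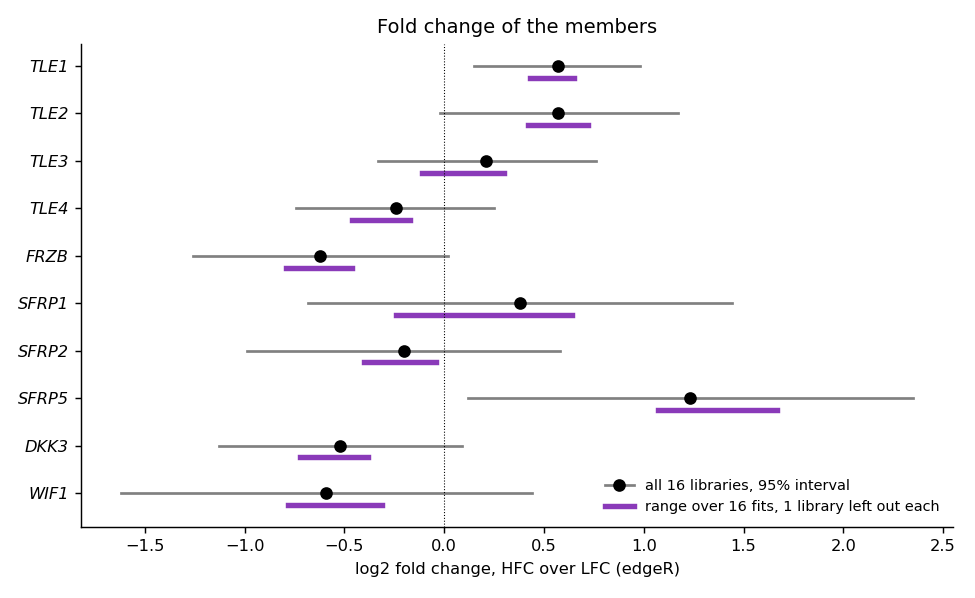
The log2 fold change of each gene in HFC over LFC (black points, edgeR, 8 against 8 libraries) with its 95% interval (grey line), and the range of the estimate when each library is left out in turn (purple bar). The interval excludes 0 for TLE1 and SFRP5 before adjustment over all genes, and the purple bars of TLE3 and SFRP1 cross 0.

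The members shared a few libraries at the ends of their ranges. HFC replicate 16 held the highest or the lowest value of all 16 libraries for 6 of the 10 genes (highest for TLE1, TLE3 and SFRP1, lowest for FRZB, SFRP2 and DKK3), beside 30.7% of all genes tested. LFC replicate 4 held the lowest value for 3 members (TLE2, SFRP1 and SFRP5), beside an extreme value for 5.52% of all genes. LFC replicate 5 went the other way, with an extreme value for 2 members (TLE4 and WIF1) beside 55.3% of all genes. LFC replicate 8 had 2 (TLE1 and FRZB) beside 21.6%. These libraries were picked after all 16 were seen. HFC replicate 9 held an extreme value for TLE4 alone but was the one HFC library on the LFC side of the LFC mean for TLE1, TLE4, FRZB and SFRP5. Without replicate 9, 5 members had an unadjusted edgeR p under 0.05 (0 called), and without replicate 16 there were 3. Without LFC replicate 5 there were 4. On the 12 libraries left without LFC replicate 5 and HFC replicates 13, 14 and 16 there was 1. The share of all genes under the same threshold was not computed for these smaller fits. Their counts are therefore not read as particular to the members.

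**Figure D3:**
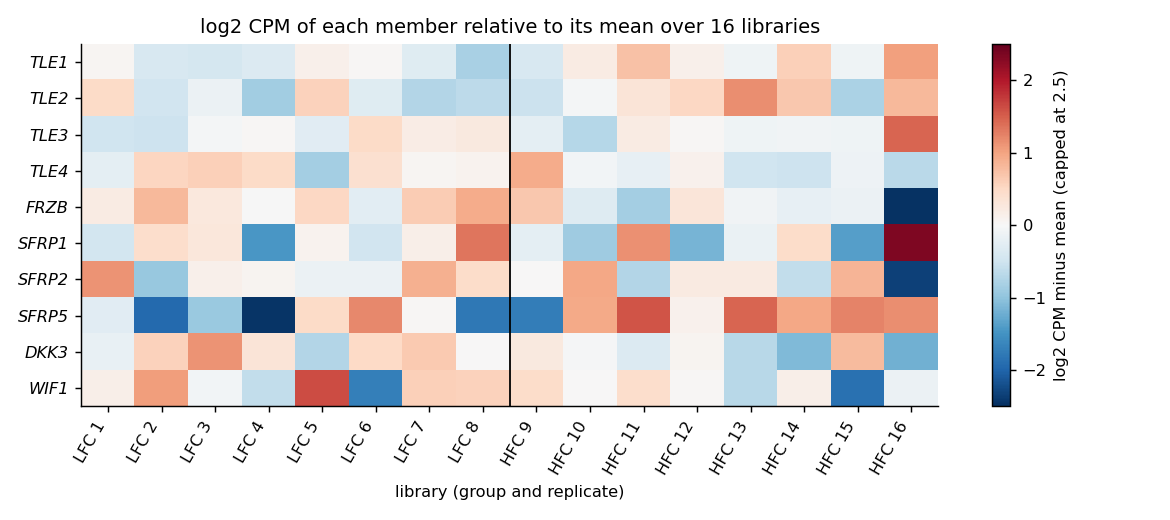
The log2 CPM of each gene (rows) in each library (columns, LFC left and HFC right of the line) minus the mean of that gene over the 16 libraries, red for higher and blue for lower. HFC replicate 16 shows high TLE1, TLE3 and SFRP1 beside low FRZB, SFRP2 and DKK3.

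Correlations between members were taken within the groups. After centring on the group means, 6 of 45 pairs had a Pearson correlation at a permutation p of at most 0.05, adjusted over the 45 pairs (n = 16 libraries). This is not particular to the members: an r of at least 0.656 in size, the weakest of the 6, was found in 7 of the 45 pairs or 15.6%, and in 20.7% of all pairs of the 14319 genes tested. TLE1 and FRZB ran in opposite directions, with r = -0.776 (adjusted permutation p = 0.00765) and Spearman's rho = -0.724 (adjusted permutation p = 0.0462). Without HFC replicates 9 and 16, r was -0.583. TLE4 and DKK3 ran in the same direction, with r = 0.765 (adjusted permutation p = 0.0128) and rho = 0.779 (adjusted permutation p = 0.0306), and r was 0.753 without LFC replicate 5 and HFC replicate 9. TLE2 ran against DKK3, with r = -0.74 (adjusted permutation p = 0.019), rho = -0.703 (adjusted permutation p = 0.0462), and r = -0.667 without HFC replicates 13 and 15.

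The other 3 pairs passed by Pearson's r alone. TLE2 ran against TLE4, its paralogue, with r = -0.685 (adjusted permutation p = 0.029) and rho = -0.621 (adjusted permutation p = 0.0922). SFRP1 ran against SFRP2 with r = -0.695 (adjusted permutation p = 0.029) and rho = -0.597 (adjusted permutation p = 0.0922). TLE4 and SFRP5 had r = -0.656 (adjusted permutation p = 0.0422) and rho = -0.6 (adjusted permutation p = 0.0922). Without the 2 libraries farthest out, these r values were -0.776, -0.59 and -0.402.

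The mean log2 CPM of the pituicyte and glial markers split the libraries into separate clusters. In 8 libraries (5 LFC, 3 HFC) it lay between 1.15 and 2.0, and in the other 8 (3 LFC, 5 HFC) between 3.1 and 5.36. Markers of oligodendrocytes and Schwann cells, the glia that form myelin, divided the libraries in the same way. Their mean log2 CPM was 0.26 or less in the first 8 libraries and 1.28 or more in the other 8. The split is therefore not particular to pituicytes. These clusters were drawn from the data and no test was made between them. Differences between the clusters were computed for the members only, so they are not read as particular to the members.

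TLE4 had 51.9 to 108 CPM (median 76.6) in the libraries with lower markers and 31.1 to 58.5 CPM (median 43.6) in those with higher markers. DKK3 had 223 to 480 CPM (median 293) with lower markers and 96.4 to 346 CPM (median 156) with higher markers. Both corepressor and antagonist were thus lower in mean log2 CPM where glial markers were higher, with differences of -0.76 for TLE4 and -0.91 for DKK3. TLE1 and TLE2 had the opposite sign, at 0.59 and 0.81, and so had SFRP5 at 1.58.

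The difference between HFC and LFC in mean log2 CPM, taken inside each cluster, kept its sign in both clusters for some members and not for others. For TLE4 it was -0.27 over all 16 libraries, -0.11 with lower markers and -0.05 with higher markers. For TLE1 it was 0.52 over all, 0.27 with lower markers and 0.53 with higher markers, and for TLE2 it was 0.53, 0.22 and 0.49. SFRP5 had 1.43 over all and more than 1 in both clusters, at 1.06 and 1.15.

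FRZB differed by -0.07 in the cluster with lower markers and by -1.24 in the other, which holds HFC replicate 16. DKK3 differed by -0.14 and -0.58 in the same order, and WIF1 by -0.31 and -0.84. The sign turned for SFRP1, at -0.95 and 0.65, for SFRP2, at 0.45 and -1.12, and for TLE3, at -0.14 and 0.36. With 3 libraries in the smaller arm of each cluster, these values were not tested, nor was the part of glial RNA in the results on the members.

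Of the 6 pairs of members above, TLE1 with FRZB had nearly the same correlation in both clusters. It was r = -0.754 and rho = -0.738 in the 8 libraries with lower markers (exact permutation p = 0.0625 and 0.11, adjusted over 12 relations). In the 8 libraries with higher markers it was r = -0.777 and rho = -0.738 (exact permutation p = 0.0476 and 0.11, adjusted likewise). TLE4 and SFRP5 had r of -0.505 and -0.405, neither of which passed (adjusted exact permutation p = 0.348 and 0.463). Exact here means that all orders of the 8 libraries were used. The values were centred on group means first, so these p-values are approximate and may be too small.

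The other 4 pairs were near 0 with lower markers, where r lay between -0.0799 and 0.0737, and strong with higher markers. There TLE4 and DKK3 had r = 0.944 and rho = 0.976 (adjusted exact permutation p = 0.00595 and 0.00476). SFRP1 and SFRP2 had r = -0.942 and rho = -0.881 (adjusted exact permutation p = 0.00938 and 0.0435). TLE2 had r = -0.834 with DKK3 and -0.815 with TLE4 (adjusted exact permutation p = 0.0442 for both), with rho at -0.69 and -0.738 (adjusted exact permutation p = 0.139 and 0.11). The cluster with higher markers holds LFC replicate 5 and HFC replicate 16. Without either of these the 4 pairs kept their sign, with r between -0.981 and -0.797 for the 3 negative pairs and from 0.934 to 0.958 for TLE4 with DKK3. For TLE1 with FRZB it was -0.692 without HFC replicate 16 and -0.805 without LFC replicate 5, and TLE4 with SFRP5 turned to 0.138 without LFC replicate 5. These pairs were chosen by their correlation over the same 16 libraries, so the values are no independent evidence, and the difference between clusters was not tested.

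Over all 16 libraries 11 of 30 relations between a member and a marker list passed. Without the 2 libraries farthest out 2 did, namely TLE4 with the glial markers and TLE1 with the fibroblast markers. The share of all genes tested that would pass with these lists was not computed. Whether these counts are particular to the members is therefore not known. TLE4 and the glial markers had r = -0.711 and rho = -0.794 (adjusted permutation p = 0.0132 and 0.00855), and r = -0.784 without those libraries (adjusted permutation p = 0.00675). DKK3 and the glial markers had r = -0.796 and rho = -0.735 (adjusted permutation p = 0.0054 and 0.0151), and r = -0.674 without them (adjusted permutation p = 0.0852). These values span the separate clusters of glial level. Inside the clusters TLE4 had r = 0.457 with lower and -0.426 with higher markers, and DKK3 had -0.628 and -0.565.

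Within clusters, no relation of a member with a marker list passed. Of 40 such relations (pituicyte, melanotroph and fibroblast lists, split at the widest gap of each list) none reached an adjusted permutation p of 0.05. The smallest was 0.13, and 11 were under 0.05 before adjustment, a count for which no share over all genes was computed. TLE1 and the fibroblast markers had r = 0.735 and rho = 0.741 in the 12 libraries with lower fibroblast markers (adjusted permutation p = 0.13 and 0.308). Over all 16 libraries the same pair had r = 0.674 and rho = 0.776 (adjusted permutation p = 0.0174 and 0.00855, over 30 relations), and r = 0.842 without the 2 libraries farthest out. Fibroblast markers themselves overlapped between the groups, with summed levels of 227 to 1120 CPM in LFC and 210 to 1070 in HFC.

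Melanotroph markers stood out in HFC replicate 16, with a mean log2 CPM of 11.6 beside 9.02 in the next library. In the other 15 libraries TLE3 had r = 0.595 and rho = 0.504 with these markers (adjusted permutation p = 0.13 and 0.321). FRZB had r = -0.411 and rho = -0.293 (adjusted permutation p = 0.325 and 0.52). SFRP1 had r = 0.351 and rho = 0.357 (adjusted permutation p = 0.4 and 0.45). None of these passed the test, and the values of TLE3, FRZB and SFRP1 in replicate 16 stand beside its melanotroph markers without a test of their part.

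**Figure D4:**
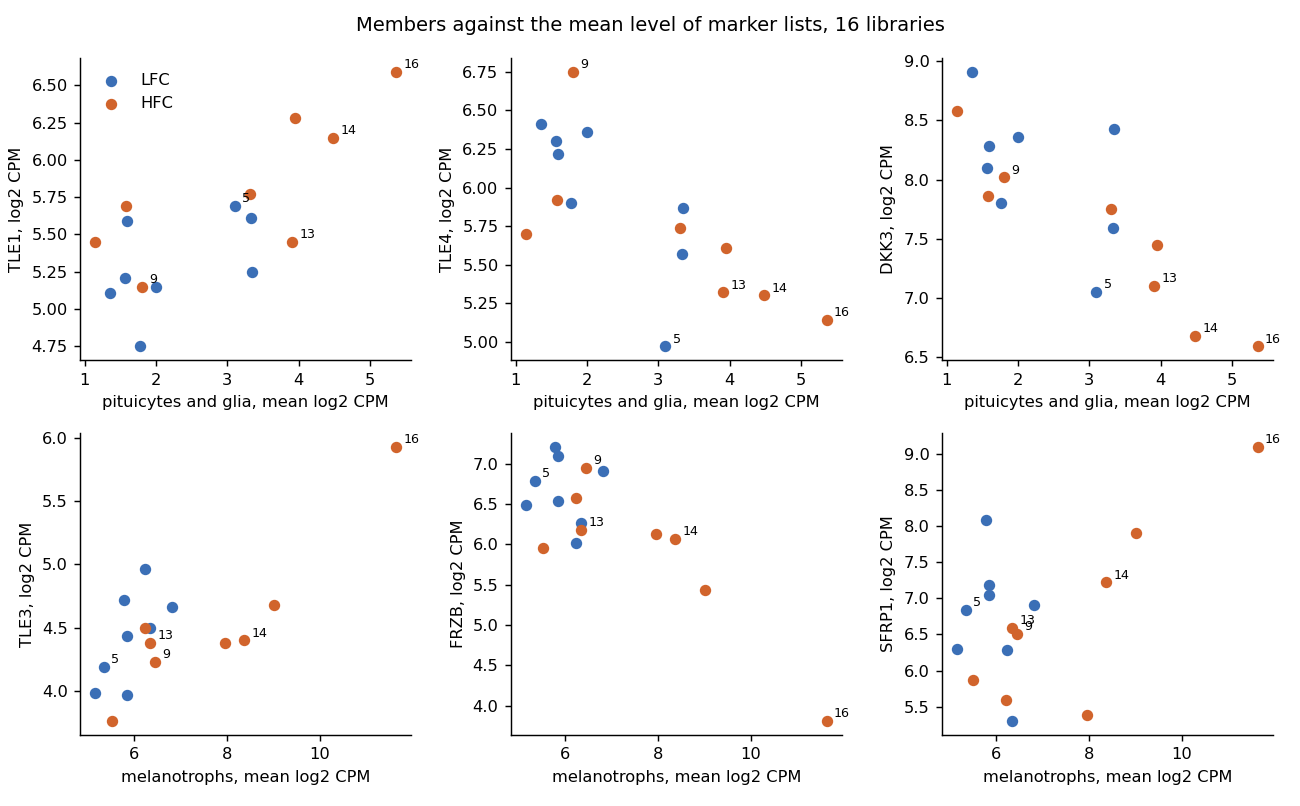
The log2 CPM of 6 genes against the mean log2 CPM of the pituicyte and glial markers (top row) or of the melanotroph markers (bottom row) in 8 LFC (blue) and 8 HFC (orange) libraries, with the libraries that stand apart numbered. The glial markers leave a gap between 2.0 and 3.1, and HFC replicate 16 lies alone at 11.6 for the melanotroph markers.

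The genes with the pattern most like each member were named by Pearson's r of group-centred log2 CPM over the 16 libraries, among 10782 genes, as a description. SFRP5 was most like SFRP4, another secreted frizzled-related protein (r = 0.832). TLE2 was most like CLCN7, a chloride/proton exchanger of lysosomes (0.936), and SLC4A2, an anion exchanger (0.898). TLE4 was most like ENPP2, which encodes autotaxin (0.912), and SYN2, a synaptic vesicle protein (0.91). FRZB was followed by UNC5CL (0.924) and ANGPT1, a ligand of the endothelial receptor TIE2 (0.903). DKK3 was followed by NECAP1, an endocytosis protein (0.921), and SMAD9, a transducer of BMP signals (0.91).

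For TLE1 the closest were SPATS2L (0.898) and EHD2, a protein of caveolae (0.896). For TLE3 they were RGS6 (0.878) and SYT11 (0.876), for SFRP1 TBRG1 (0.887) and SLC44A1 (0.884), and for SFRP2 PHLDB3 (0.908) and ELMOD1 (0.889). The second gene for SFRP5 was SLC12A4 (0.772), and WIF1 was most like PAQR8 (0.798) and PLEKHG3 (0.782). SFRP4 itself had 22.2 ± 17.6 CPM in LFC and 32 ± 21.1 in HFC (SD, n = 8 each), with an adjusted p of 1.

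The rest of the pathway was read from lists of ligands, receptors, transducers, nuclear factors, partners and targets. Of 112 listed genes 108 were matched and 86 were tested. Estimates were higher in HFC for 45 and lower for 41, with a median log2 fold change of 0.007. None passed the test. Of all genes tested, 5.82% had an unadjusted edgeR p under 0.05 in either direction, and 4.29% had it with higher values in HFC. Among the 86 pathway genes 5 did, all with higher values in HFC. By role these were 3 of 13 other antagonists, 1 of 9 TLE partner factors and 2 of 10 target genes, with ZNRF3 in 2 lists. None of 13 ligands and modifiers, 15 receptors, 18 transducers or 13 nuclear factors was among them.

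Among the other antagonists, SOSTDC1, which blocks both BMP and Wnt signals, had 0.847 ± 0.601 CPM in LFC and 13 ± 24.1 in HFC (SD, n = 8 each). The HFC mean was carried by replicate 16 at 69.5 CPM, replicate 11 at 23.5 and replicate 14 at 6.04. The fitted difference was 3.96 log2 units (SE 1.09, adjusted p = 0.612), or 2.57 without replicate 16. With DESeq2 it was 3.92 (unadjusted p = 7.28e-05, adjusted p = 0.0601). It was 1.96 with limma-voom (unadjusted p = 0.126), and the mean log2 CPM differed by 1.79 (exact permutation p = 0.127). The unadjusted edgeR p was under 0.05 in all 16 fits that left 1 library out, with an adjusted p of 0.338 at the least. DKK1, which blocks the LRP co-receptors, had 1.9 ± 0.571 CPM in LFC and 4.53 ± 5.13 in HFC, with 16.7 CPM in replicate 16. The fitted difference was 1.25 log2 units (SE 0.51, adjusted p = 0.758) and 0.55 without that library. ZNRF3, a ubiquitin ligase that removes frizzled receptors and is itself a Wnt target, differed by 0.65 log2 units (SE 0.28, adjusted p = 0.804) and 0.36 without replicate 16.

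HEY1, a Notch target and repressor, differed by 0.73 log2 units (SE 0.33, adjusted p = 0.839) and 0.40 without replicate 16. CD44, an adhesion receptor and Wnt target, had 27.6 ± 7.62 CPM in LFC and 43.6 ± 17.5 in HFC. The fitted difference was 0.66 log2 units (SE 0.24, adjusted p = 0.68), with an unadjusted p under 0.05 in all 16 fits that left 1 library out. AXIN2, another listed target gene, had 24.4 ± 6.53 CPM in LFC and 24 ± 4.83 in HFC, which differed by -0.02 log2 units (SE 0.19, adjusted p = 1). It was picked from the list after its value was seen, outside the rule used to name the other genes. Of the 10 target genes tested, 5 had higher and 5 had lower estimates in HFC, with a median log2 fold change of 0.068. Wnt output was not measured, and no conclusion on it is drawn from AXIN2.

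The most abundant genes of these lists did not pass the test. The log2 fold change was 0.19 for CTNNB1, which encodes β-catenin, -0.15 for the co-receptor LRP5 and 0.24 for WLS, which carries Wnt proteins to the surface. It was -0.08 for the corepressor CTBP1 and -0.20 for NKD2, an inhibitor of dishevelled. SIX3, a homeobox factor that binds TLE proteins, had 0.36. TLE5, the short family member that lacks most of the corepressor body, had 0.05 and so did not share the estimates of TLE1 and TLE2, although the difference between the genes was not tested.

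**Figure D5:**
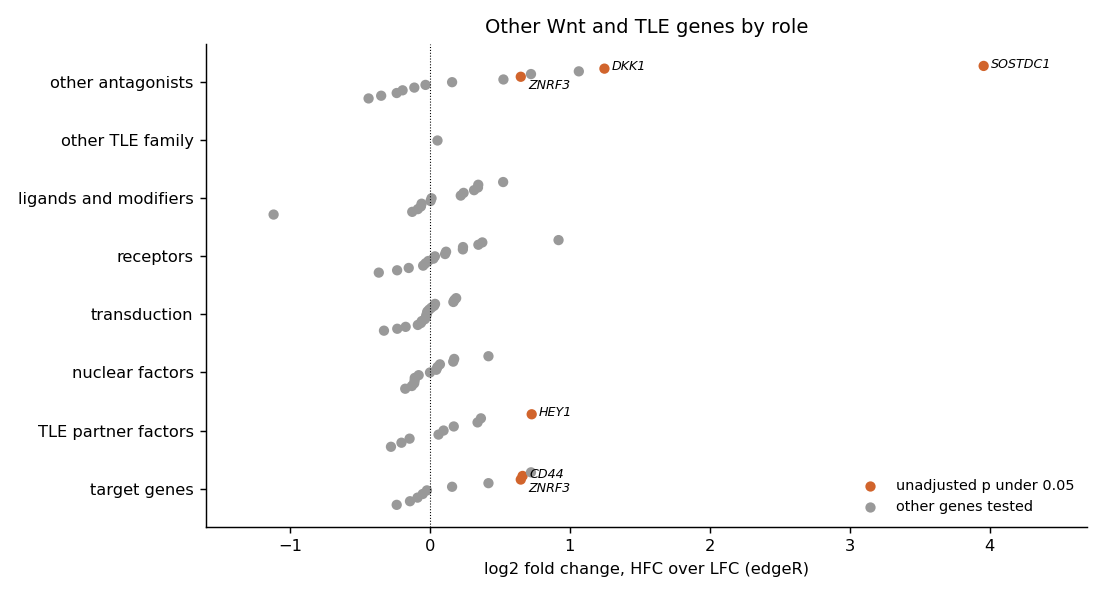
The log2 fold change in HFC over LFC (edgeR, 8 against 8 libraries) of the other Wnt and TLE genes tested, 1 point per gene and 1 row per role, with the genes at an unadjusted p under 0.05 in orange and named. Most points lie near 0, and SOSTDC1 at 3.96 is farthest out.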

How the data were processed

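The authors deposited raw read counts per gene for 16 libraries, made from non-strand-specific TruSeq libraries. The submitters' processing notes name FastQC, STAR, RSEM, DESeq2 and Sscrofa11.1 without saying which made the counts. A second deposited table holds the authors' comparison (fold changes and p-values), which was not used, and gene symbols and positions (other values), which were. Symbols came from that table for 10091 genes, from a name table for 5454 and from the gene position for 1, POMC. Counts were whole numbers and were used as deposited. The gilts were unrelated animals, and no pair of libraries in a group agreed within sampling noise (chi-square divided by its degrees of freedom was 27.1 or more in all 56 pairs).

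Genes were filtered with filterByExpr (14319 kept, 11561 removed), scaled by TMM and tested with edgeR 4.0.16 quasi-likelihood, with Benjamini-Hochberg adjustment over all genes tested, in R 4.3.3. Log2 CPM used a prior count of 2. SE was the log2 fold change over the square root of F, and 95% intervals used the t quantile of the test's degrees of freedom. A two-sided exact permutation test was run on all genes, and correlations had 100000 resamples, or all orders where n was 8. The correlation p-values treat values centred on group means as exchangeable. That holds only roughly, so they may be too small. The scripts were tested on simulated data. Alternatives were DESeq2 1.42.0, limma-voom (limma 3.58.1), other scalings and filters, and leaving out libraries. DESeq2 on 14 libraries and the split of libraries by marker level were chosen after seeing the data.

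The members and lists were chosen with earlier results of these data known. The genes named were all members, the genes of each pathway list with an unadjusted p under 0.05 (at most 3 a list) and the most abundant, (1 gene is not reported here), and for each member the 2 most alike genes of at least 5 CPM. Exon lengths were not used. Different genes were ranked by CPM only to pick the most abundant of each list and to set the minimum of 5 CPM.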

Additional observations from a re-analysis of the deposited data

Results flagged for a closer look

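In 20 checks of single libraries within a group of 8 (10 genes in each group), 2 values lay apart from the rest by Dixon's criterion (critical value 0.526), where chance gives about 1. TLE3 in HFC replicate 16 was high, at 5.93 log2 CPM, with the nearest library at 4.68 and the lowest at 3.76, so that the gap took 0.577 of the range. The same library had the highest melanotroph and glial marker levels, and their part in the value was not tested. SFRP5 in HFC replicate 9 was low, at -0.04 log2 CPM, with the nearest library at 1.80 and the highest at 3.26, a gap of 0.559 of the range.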

How the results depend on the processing

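No member was called under any alternative. Of 258 member fold changes under alternatives, 253 kept their direction and 5 reversed. On the 12 libraries without LFC replicate 5 and HFC replicates 13, 14 and 16, the log2 fold change was -0.16 for TLE3, -0.37 for SFRP1, 0.0329 for SFRP2 and -0.0217 for WLS. With 1 library left out it ran from -0.11 to 0.30 for TLE3 and from -0.24 to 0.64 for SFRP1 (negative without HFC replicate 16), and from -0.0184 to 0.19 for TLE5. Genes called over the whole table were 6 with DESeq2 and 22 with DESeq2 on the 14 libraries without LFC replicate 5 and HFC replicate 14, beside 0 with edgeR and limma-voom. Members at an unadjusted p under 0.05 were 1 with at least 10 counts in every library (a filter that removed SFRP5 and WIF1), 1 on the 12 libraries, and 1 to 5 with 1 library left out, with 1 without LFC replicates 2, 3 or 8 or HFC replicates 11 or 13, 4 without LFC replicate 5 or HFC replicate 15, and 5 without HFC replicate 9. The same count for the other pathway genes was 2 with limma-voom, 9 without a filter, 3 with at least 10 counts in every library, and 2 (without HFC replicate 16) to 7 with 1 library left out. The filters change how many pathway genes are tested. For these alternatives the share of all genes under the threshold was not computed. The counts of members and pathway genes are therefore not compared between fits. Relations of members with marker lists at an adjusted p of at most 0.05 went from 11 of 30 to 2 without the 2 libraries farthest out. The cause was not tested. No paired analysis was possible because the groups share no replicate number. Low counts limit SFRP5 and WIF1.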
